A study of Mus musculus with 12 samples.

Results

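Macrophages of the liver were followed through 37 marker genes in RNA of whole liver from mice that were pair-fed (PF) or alcohol-fed (AF). The genes were taken by symbol from the table of gene counts, and all 37 were found among its 54232 genes. They fall into 4 classes by the cells they are known to mark, with 9 genes of resident Kupffer cells, 14 genes shared by most macrophages (pan-macrophage genes), 4 genes of monocytes and cells derived from them, and 10 genes of lipid-associated macrophages. Alcohol-associated steatohepatitis (ASH) was produced by intragastric feeding, in which a tube delivers liquid diet into the stomach, and the comparison asks how these macrophage transcripts differ between livers with and without alcohol. The 5 PF mice received an isocaloric high-fat liquid diet for 8 weeks. The 7 AF mice received the high-fat liquid diet with ethanol that was raised to 27 g/kg/day, and an alcohol binge of 5 g/kg every week. Before this, the paper's mice ate a solid Western diet rich in cholesterol and saturated fat, or regular chow. In the paper's regimen the solid Western diet was also eaten freely during the intragastric feeding. All mice were male C57BL6/J, labelled as 8-week in age, and the liquid diet was high in fat in both groups. There was 1 library per mouse, each of whole liver tissue.

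Kupffer cells are the resident macrophages of the liver. They are seeded before birth, renew themselves within the sinusoids and clear bacteria, aged red blood cells and dying cells from the blood. When they are lost or the liver is injured, monocytes enter from the blood through the chemokine receptor Ccr2 and can take over the Kupffer cell program step by step, with some markers such as Timd4 acquired late or hardly at all. In fatty and injured liver, part of the recruited cells become lipid-associated macrophages, which express Trem2, Gpnmb and Cd9, take up lipid and cell debris and are found near scars.

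Between 24129900 and 30578639 reads per library were counted on genes. Values are given as CPM, the counts of a gene per 1000000 counts of its library, after TMM scaling, with factors of 0.832 to 0.901 for PF and 0.88 to 1.36 for AF libraries. The 8 hepatocyte markers, summed, lay between 93500 and 137000 CPM in PF and between 49400 and 97400 CPM in AF livers and were thus abundant in every library, and 4 of the 8 were called lower in AF. In whole tissue, fewer cells of a type and less RNA per cell cannot be told apart, nor can more cells and more RNA per cell.

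All 37 genes passed the filter on low counts and were tested together with all other genes (14168 in total) by edgeR's quasi-likelihood test with Benjamini-Hochberg adjustment at 0.05, which is the test behind each adjusted p that follows unless another is named. In AF livers, 28 of the 37 genes were called higher and 1 was called lower, while 8 were not called. Over all genes tested, 22.0% were called higher and 17.8% lower, or 39.8% in either direction. The median log2 fold change was 1.18 over the 37 genes and 0.04 over all genes. In 15 of the 37 genes every AF liver lay above every PF liver, which held for 8.20% of all genes. In 1 gene every AF liver lay below every PF liver, which held for 9.49% of all genes. The classes moved by different amounts, with 4 of 9 resident Kupffer genes higher (median 0.49), 13 of 14 pan-macrophage genes higher (1.16), 2 of 4 monocyte genes higher (1.54) and 9 higher and 1 lower of 10 lipid-associated genes (2.81).

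**Figure D1:**
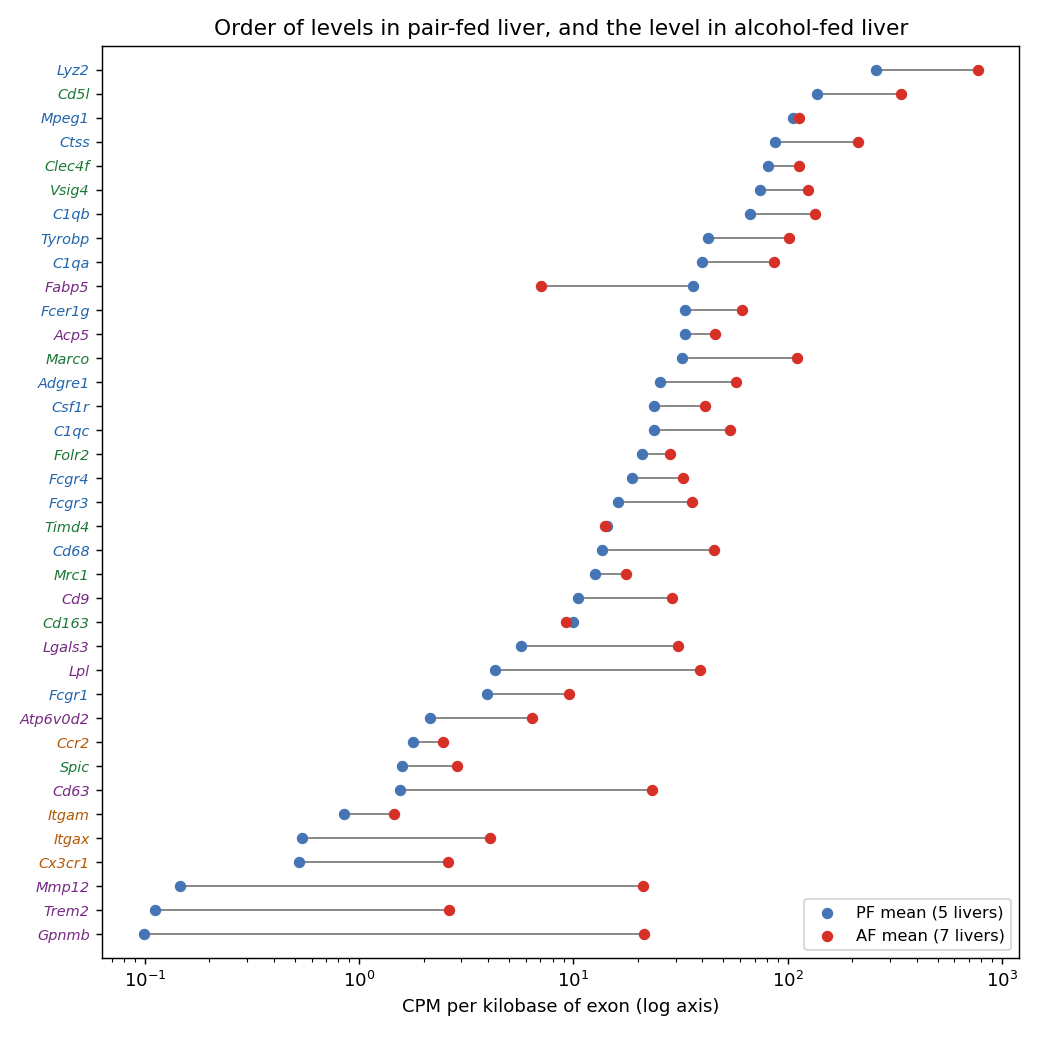
Mean CPM per kilobase of exon for each of the 37 genes, on a log axis, in PF (blue, 5 livers) and AF (red, 7 livers), ordered by the PF level and with gene names coloured by class (green resident Kupffer, blue pan-macrophage, orange monocyte-derived, purple lipid-associated). Gpnmb, Trem2 and Mmp12 close the PF order at 0.099, 0.111 and 0.145, and in AF Gpnmb and Mmp12 reach 21.3 and 21.0 while Cd163, Timd4 and Mpeg1 stay near their PF level.

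Divided by exon length, the level of the genes in PF liver spanned a wide range. Lyz2, which codes for the lysozyme of macrophages and granulocytes, stood first at 257 ± 84.9 CPM per kilobase (SD, n = 5), followed by Cd5l at 137 ± 14.3 and Mpeg1 at 106 ± 26.8. Among the resident genes Clec4f stood at 80.6 ± 8.08 and Vsig4 at 74.5 ± 11.8 CPM per kilobase, and these neighbours differed by less than their spread. A group of 3 lipid-associated genes closed the order, with Mmp12 at 0.145 ± 0.0704, Trem2 at 0.111 ± 0.0419 and Gpnmb at 0.099 ± 0.135 CPM per kilobase, again within their spread. In AF liver Lyz2 and Cd5l kept the first and the second place, at 771 ± 379 and 338 ± 133 CPM per kilobase (SD, n = 7). Gpnmb moved from place 37 to place 24 and Fabp5 from place 10 to place 30.

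Resident Kupffer genes split into a group that rose and a group that did not pass the test. The genes called higher were Cd5l, Marco, Vsig4 and Clec4f, and those not called were Timd4, Folr2, Cd163, Mrc1 and Spic. Cd5l codes for a secreted protein of tissue macrophages that binds lipids and complement-coated debris. Its level in PF replicates 1 to 5, the order used for all such values, was 246, 249, 285, 305 and 307 CPM, and in the 7 AF livers it ran from 451 through a median of 646 to 1220 CPM. The groups did not overlap, and the log2 fold change was 1.31 ± 0.24 (SE, adjusted p = 0.0013). Marco, a scavenger receptor that binds bacteria, stood at 32.7, 33.2, 52.6, 56.1 and 136 CPM in PF and at 79.5 to 511 CPM in AF with a median of 201. Here PF replicate 5 reached into the AF range, and the log2 fold change of 1.78 ± 0.505 (adjusted p = 0.0139) was 2.28 without that library and 1.40 without AF replicate 3, in both cases past the threshold.

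Vsig4, the complement receptor with which Kupffer cells capture bacteria from the blood, stood at 92.1, 94.3, 134, 116 and 116 CPM in PF and at 95.2 to 282 CPM in AF, with a median of 190. In all, 6 of the 7 AF livers lay above all PF livers, AF replicate 1 lay within the PF range, and the log2 fold change was 0.73 ± 0.214 (adjusted p = 0.0165). Clec4f (chr6:83644542-83656187, GRCm38, minus strand), a C-type lectin that in mice marks Kupffer cells, stood at 181, 199, 213, 224 and 179 CPM in PF and at 146 to 387 CPM in AF, with a median of 278. Again 6 AF livers lay above all PF livers, whereas AF replicate 1 lay below them. The log2 fold change of Clec4f was 0.49 ± 0.185 (adjusted p = 0.0493), and this call rests on the threshold. Of the 12 fits that each left out 1 library, it was made in 1, the fit without AF replicate 1 (0.60, adjusted p = 0.00295), and the adjusted p in the other 11 ran up to 0.108.

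Timd4 and Cd163 were the resident genes with a log2 fold change near 0, and single AF livers lay far from one another. Timd4 codes for a receptor for phosphatidylserine on dying cells that marks long-lived resident macrophages. The gene (chr11:46810800-46844332, plus strand) stood at 21.6, 25.7, 34.3, 32.6 and 40.8 CPM in PF and at 4.23 to 56.6 CPM in AF, with a median of 30.8, so that 2 AF livers lay above and 2 below all PF livers. The log2 fold change was -0.01 ± 0.446 (adjusted p = 0.983), it ran from -0.25 to 0.19 as single libraries were left out, and it was 0.29 with library totals in place of TMM and -0.40 by limma-voom with quality weights. Cd163 (chr6:124304656-124330527, plus strand), the receptor for haemoglobin bound to haptoglobin, stood at 31.3, 55.4, 67.3, 61.3 and 56.1 CPM in PF. In AF it ran from 3.21 through 48.9 to 85.7 CPM, again with 2 livers above and 2 below all PF livers. Its log2 fold change was -0.11 ± 0.512 (adjusted p = 0.874) with all libraries and ran from -0.30 to 0.10 as single libraries were left out, with the highest value without AF replicate 1. It was 0.14 with library totals in place of TMM, -0.68 by limma-voom with quality weights and -0.54 as the difference in mean log2(CPM + 0.1), and Cd163 was not called in any of these.

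The other 3 resident genes lay between these. Folr2, the beta folate receptor of macrophages, spanned 29.1 to 34.5 CPM among PF and 17.8 to 59.3 CPM among AF livers (0.44 ± 0.241, adjusted p = 0.159). Mrc1, the mannose receptor, spanned 49.4 to 104 CPM among PF and 72.9 to 157 CPM among AF livers (0.49 ± 0.219, adjusted p = 0.0904). Spic, a transcription factor of macrophages that recycle iron, spanned 4.28 to 7.74 CPM among PF and 4.59 to 20.7 CPM among AF livers (0.84 ± 0.324, adjusted p = 0.0528). With all libraries, Spic was called higher by DESeq2 (0.83, adjusted p = 0.0361) and Mrc1 by limma-voom (0.53, adjusted p = 0.0315). Without AF replicate 1 all 3 were called higher, at 0.58 for Folr2 (adjusted p = 0.0138), 0.57 for Mrc1 (0.0471) and 0.98 for Spic (0.017). Sinusoidal endothelium also expresses Mrc1, and the 7 markers of this cell type had a summed level of 196 to 402 CPM in PF and 231 to 397 CPM in AF, with 1 of 7 called higher (Lyve1).

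**Figure D2:**
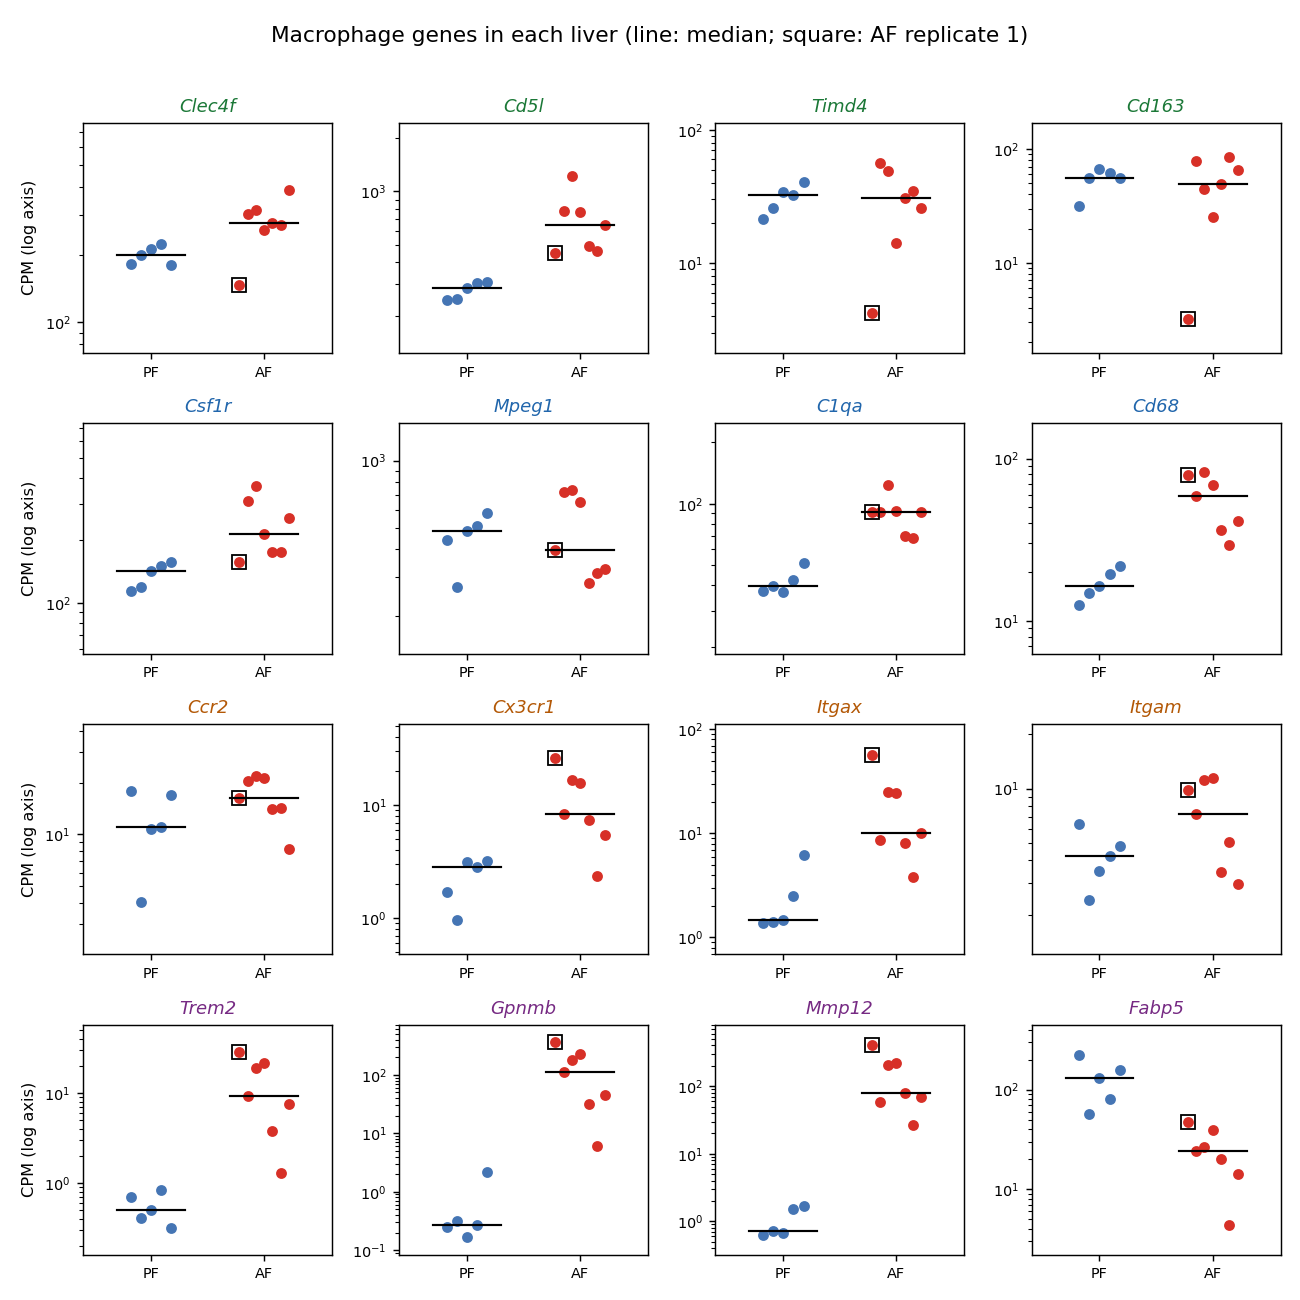
CPM of 16 genes in each liver on log axes (PF blue, AF red, line at the median, square around AF replicate 1), with 4 genes of each class in a row: resident Kupffer, pan-macrophage, monocyte-derived, lipid-associated. AF replicate 1 is the lowest AF liver for Clec4f, Cd5l, Timd4 and Cd163 and the highest for Cx3cr1, Itgax, Trem2, Gpnmb and Mmp12.

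Of the 14 pan-macrophage genes 13 rose, with log2 fold changes from 0.79 to 1.73 and no overlap of the groups in 7, while Mpeg1 was not called. The 3 chains of complement C1q, which macrophages make in the liver, moved together. C1qa stood at 37.4, 39.7, 37, 42.2 and 51.3 CPM in PF and at 68.2 to 124 CPM in AF, with a median of 91.1. All AF livers lay above all PF livers, and the log2 fold change was 1.11 ± 0.147 (adjusted p = 1.55e-04). C1qb lay between 67.2 and 79.7 CPM in PF and between 91.4 and 212 CPM in AF, a rise of 1.01 ± 0.17 (adjusted p = 7.52e-04). C1qc lay between 41.1 and 54.1 CPM in PF and between 70.7 and 157 CPM in AF, a rise of 1.18 ± 0.179 (adjusted p = 3.98e-04). In all 3 chains the highest AF liver was AF replicate 3, and each kept its call in all 12 fits without 1 library.

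Cd68, a glycoprotein of the lysosome membrane, had the largest rise of the class. It stood at 12.6, 14.8, 16.5, 19.5 and 21.8 CPM in PF and at 29.3 to 82.4 CPM in AF, with a median of 58.8. No AF liver overlapped with PF, and the log2 fold change was 1.73 ± 0.267 (adjusted p = 4.31e-04). Ctss, the lysosomal protease cathepsin S that prepares antigens for presentation, stood at 87.5, 99.9, 114, 134 and 155 CPM in PF and at 140 to 414 CPM in AF, with a median of 317. AF replicate 6 lay within the PF range and the other 6 above it, and the log2 fold change was 1.29 ± 0.253 (adjusted p = 0.00192). Lyz2 stood at 356, 214, 302, 302 and 516 CPM in PF and at 484 to 1860 CPM in AF, with a median of 1100 and a log2 fold change of 1.59 ± 0.349 (adjusted p = 0.00369). Reads of Lyz2 may be shared with the near-identical Lyz1, and those of the Fc receptor genes with one another, so the split between such copies is uncertain.

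Receptors and their adaptors followed. Csf1r, the receptor for the growth factors that keep macrophages alive, stood at 114, 119, 143, 151 and 157 CPM in PF and at 157 to 367 CPM in AF, with a median of 216. The groups touched but did not overlap, and the log2 fold change was 0.79 ± 0.21 (adjusted p = 0.0102). Adgre1, which codes for the surface protein that the common mouse macrophage antibody binds, spanned 42.1 to 108 CPM among PF and 93.4 to 406 CPM among AF livers (1.18 ± 0.374, adjusted p = 0.0241). Its call was lost without PF replicate 1 (1.01, adjusted p = 0.0567) and without PF replicate 2 (1.10, adjusted p = 0.0604). The signalling adaptors Tyrobp and Fcer1g rose by 1.25 ± 0.227 (adjusted p = 0.00123) and 0.89 ± 0.231 (adjusted p = 0.00903). Fcer1g, the gamma chain of the Fc receptors, stood at 28.9, 25.2, 28.5, 27.2 and 34.3 CPM in PF and at 33.5 to 90.3 CPM in AF, where only AF replicate 5 lay within the PF range. The activating receptors for immunoglobulin G followed their adaptor. Fcgr1 had a mean of 10.2 ± 1.95 CPM in PF (SD, n = 5) and 24.8 ± 10.1 CPM in AF (SD, n = 7) and rose by 1.28 ± 0.266. Fcgr3 had means of 28 ± 2.89 and 61.8 ± 15.6 CPM and rose by 1.14 ± 0.173, without overlap between the groups. Fcgr4 had means of 23.5 ± 4.53 and 41 ± 15.1 CPM and rose by 0.80 ± 0.224, with AF replicate 1 within the PF range. All 3 were called (adjusted p 0.00264, 3.89e-04 and 0.0129). Mpeg1, a pore-forming protein that macrophages use against bacteria, was the exception in this class. It stood at 441, 272, 482, 507 and 584 CPM in PF and at 282 to 736 CPM in AF, with a median of 396, and its log2 fold change was 0.10 ± 0.284 (adjusted p = 0.805). Of the AF livers 3 lay above all PF livers and 4 within their range, and the value ran from -0.05 to 0.20 as single libraries were left out.

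Promoters of these genes are shown where members moved together. The RefSeq table (assembly GRCm38.p6, the build to which the reads were aligned) held 35 start sites for 30 of the 37 genes, and the 250 bases before each were searched on both strands for GAGGAA, the core of the site bound by PU.1, the factor that specifies macrophages. The letters occurred in 16 of the 35 windows (45.7%), against 23.3% of all 32851 windows of the table, and in 8 of 11 windows of pan-macrophage genes (72.7%), 4 of 10 of resident genes (40.0%), 1 of 4 of monocyte genes (25%) and 3 of 10 of lipid-associated genes (30.0%). Windows of the pan-macrophage gene Fcgr3 overlap and hold the same PU.1 letters, so that site is counted more than once. A match of 6 letters describes the window and does not show binding. The AP-1 letters TGANTCA, which bind factors of the Fos and Jun families, occurred in 5 of the 35 (14.3%; all windows 6.75%), and the E-box CACGTG, which binds the lysosome regulators of the MITF and TFE family, in 0 of the 35 (all windows 6.02%). The windows of C1qb (chr4:136886201-136886450, minus strand) and Cd68 (chr11:69666171-69666420, minus strand) are printed 5′ to 3′, with motif letters in capitals, because these 2 genes rose in every AF liver and Cd68 holds both motifs. In C1qb the PU.1 letters begin 30 bases before the start site. In Cd68 they begin 225 bases before it, and AP-1 letters begin 149 and 24 bases before it.
C1qb: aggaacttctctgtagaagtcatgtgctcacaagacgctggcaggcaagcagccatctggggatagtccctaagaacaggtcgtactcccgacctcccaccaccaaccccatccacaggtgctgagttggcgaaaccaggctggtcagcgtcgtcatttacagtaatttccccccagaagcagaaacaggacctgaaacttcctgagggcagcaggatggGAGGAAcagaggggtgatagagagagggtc
Cd68: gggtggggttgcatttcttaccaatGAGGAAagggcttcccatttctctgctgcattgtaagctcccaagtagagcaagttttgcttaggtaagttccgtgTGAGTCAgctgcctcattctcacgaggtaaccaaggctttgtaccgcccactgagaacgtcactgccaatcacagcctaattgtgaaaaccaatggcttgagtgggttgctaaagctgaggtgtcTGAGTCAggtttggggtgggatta

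Monocyte genes did not move as one. Ccr2, the chemokine receptor with which monocytes enter tissue, stood at 17.9, 4.03, 10.8, 11 and 16.9 CPM in PF and at 8.27 to 21.9 CPM in AF, with a median of 16.2. Of the AF livers 3 lay above all PF livers, and the log2 fold change of 0.46 ± 0.317 did not pass the test (adjusted p = 0.266). Itgam, the integrin chain of monocytes and neutrophils, stood at 6.35, 2.42, 3.50, 4.21 and 4.80 CPM in PF and at 2.95 to 11.4 CPM in AF, with a median of 7.20 (0.77 ± 0.361, adjusted p = 0.103). Both genes were highest among PF livers in PF replicate 1, in which the summed level of 10 neutrophil markers was 1160 CPM against 61.2 to 248 CPM in the other PF and 35.9 to 217 CPM in the AF livers. Without this library the log2 fold change was 0.63 for Ccr2 and 0.96 for Itgam, and without PF replicate 2, the lowest PF liver for both, it was 0.23 and 0.62. Neither gene was called in these fits. Itgam was called without AF replicate 7 (0.91, adjusted p = 0.0423). Exons of Itgam overlap those of Gm49368 on the same strand, so its counts are uncertain.

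Cx3cr1 and Itgax rose. Cx3cr1, the fractalkine receptor that monocyte-derived cells keep and Kupffer cells lack, stood at 1.72, 0.961, 3.13, 2.83 and 3.21 CPM in PF and at 2.35 to 26.2 CPM in AF, with a median of 8.31. In Cx3cr1, 6 of 7 AF livers lay above all PF livers, and the log2 fold change was 2.30 ± 0.532 (adjusted p = 0.00477). Itgax, an integrin chain of dendritic cells and of activated macrophages, stood at 1.38, 1.42, 1.46, 2.48 and 6.20 CPM in PF and at 3.83 to 56.5 CPM in AF, with a median of 10. Only AF replicate 6 lay within the PF range, and the log2 fold change was 2.92 ± 0.682 (adjusted p = 0.00511). It was 2.37 without AF replicate 1 and 3.52 without PF replicate 5. The 8 dendritic cell markers had a summed level of 6.74 to 14.8 CPM in PF and 8.82 to 15.2 CPM in AF, and Ccr7 was at 0 in PF replicate 1. None of the 8 was called by edgeR's quasi-likelihood test or DESeq2, 1 was higher by limma-voom, and in edgeR 1 was higher and 1 lower at an unadjusted p below 0.05. Itgax (chr7:128129547-128150657) lies downstream of Itgam (chr7:128062640-128118491) on the same strand.

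Lipid-associated genes held the largest rises of all 37. Gpnmb, a membrane glycoprotein of lipid-laden and lysosome-stressed macrophages, was counted with 5, 7, 4, 7 and 49 reads in the PF livers. The level of this gene (chr6:49036546-49070929, plus strand) was 0.246, 0.320, 0.167, 0.275 and 2.22 CPM in PF and ran from 6.14 through a median of 114 to 363 CPM in AF. The groups did not overlap, the mean was 215-fold higher in AF, and the log2 fold change was 7.76 ± 1.14 (adjusted p = 3.25e-04). Without PF replicate 5, which held most of the PF reads, it was 9.08, and without AF replicate 1 it was 7.31. Mmp12, the macrophage elastase, stood at 0.640, 0.732, 0.667, 1.53 and 1.67 CPM in PF and at 26.6 to 408 CPM in AF, with a median of 77.9. Its mean was 145-fold higher, and the log2 fold change was 7.16 ± 0.795 (adjusted p = 4.35e-05). The strand setting of the counting is not given in the sources used here, and exons of Mmp12 overlap with Mmp1b on the other strand, as do those of Folr2, Csf1r, Cx3cr1, Cd9 and Acp5 with other genes, so reads of such neighbours cannot be told apart from theirs.

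Trem2, the lipid-sensing receptor that signals through Tyrobp, was counted with 7 to 21 reads per PF library. It stood at 0.689, 0.412, 0.5, 0.826 and 0.317 CPM in PF and at 1.30 to 28.9 CPM in AF, with a median of 9.31. All AF livers lay above all PF livers, and the log2 fold change was 4.55 ± 0.733 (adjusted p = 5.98e-04). The adaptor Tyrobp, on which Trem2 depends for its signal, was present in PF liver at 23.2 to 32.2 CPM and stood at 37.9 to 108 CPM in AF. The windows before the start sites of Trem2 (chr17:48346151-48346400, plus strand) and Gpnmb (chr6:49036268-49036517, plus strand) are printed in the same way, since these 2 genes were the rarest in PF liver. In Trem2 the PU.1 letters begin 40 bases and the AP-1 letters 9 bases before the start site, while the window of Gpnmb holds neither these letters nor the E-box.
Trem2: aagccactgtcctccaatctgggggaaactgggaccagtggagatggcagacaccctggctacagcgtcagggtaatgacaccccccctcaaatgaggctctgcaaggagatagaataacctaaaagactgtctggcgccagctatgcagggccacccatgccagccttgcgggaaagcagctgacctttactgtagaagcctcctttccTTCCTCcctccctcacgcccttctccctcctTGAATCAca
Gpnmb: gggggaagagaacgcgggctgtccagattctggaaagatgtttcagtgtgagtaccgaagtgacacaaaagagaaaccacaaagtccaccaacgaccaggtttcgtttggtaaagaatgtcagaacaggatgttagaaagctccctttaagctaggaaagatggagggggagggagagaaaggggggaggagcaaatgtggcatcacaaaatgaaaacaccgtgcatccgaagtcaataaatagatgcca

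Cd63 and Cd9, tetraspanins of lysosomes and the cell surface, also rose. Cd63 stood at 9.30, 2.42, 4.08, 4.48 and 8.23 CPM in PF and at 41.6 to 146 CPM in AF, with a median of 89.5. There was no overlap, and the log2 fold change was 3.92 ± 0.449 (adjusted p = 5.61e-05). Cd9 spanned 16.9 to 29.2 CPM among PF and 30.7 to 104 CPM among AF livers, a rise of 1.45 ± 0.333 (adjusted p = 0.00469). Lgals3, the galectin that binds damaged lysosomes, stood at 14.2, 7.87, 8.00, 10.6 and 12.1 CPM in PF and at 24.2 to 96.5 CPM in AF, with a median of 60.5 (2.45 ± 0.357, adjusted p = 3.11e-04). Lpl, which releases fatty acids from lipoproteins, stood at 29.9, 23.1, 49.8, 51.5 and 71.4 CPM in PF and at 99.1 to 801 CPM in AF, with a median of 304. Neither gene overlapped between the groups, and the log2 fold change of Lpl was 3.18 ± 0.522 (adjusted p = 6.67e-04).

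The remaining 3 lipid-associated genes behaved differently. Acp5, the tartrate-resistant acid phosphatase, spanned 53.8 to 77.0 CPM among PF and 75.3 to 122 CPM among AF livers, a rise of 0.47 ± 0.134 (adjusted p = 0.0139). Atp6v0d2, a subunit of the proton pump of lysosomes, spanned 3.70 to 9.35 CPM among PF and 2.31 to 39.9 CPM among AF livers (1.6 ± 0.502, adjusted p = 0.0224). AF replicate 6 lay below all PF livers for Atp6v0d2, its exact permutation p was 0.0593, and its call was lost without PF replicate 3, 4 or 5 (adjusted p up to 0.0566). Fabp5, a carrier of fatty acids that other cells of the liver also make, fell in AF. It stood at 225, 56.8, 130, 80.2 and 156 CPM in PF and at 4.39 to 47.2 CPM in AF, with a median of 24.4. Every AF liver lay below every PF liver, and the log2 fold change was -2.36 ± 0.464 (adjusted p = 0.0019). As single libraries were left out it ran from -2.59 to -2.07 and kept its call in all 12 fits. Reads of Fabp5 may be shared with pseudogene copies, so its level is uncertain to that extent. Among AF livers Fabp5 was highest in AF replicate 1 and lowest in AF replicate 6, like most genes of its class, while its difference from PF had the other sign.

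Several lipid-associated genes are not confined to macrophages, since bile duct cells express Cd9 and Lgals3. The 8 bile duct markers had a summed level of 50.7 to 246 CPM in PF and 75.5 to 1140 CPM in AF, of which Spp1, which macrophages also make, took the most. By edgeR's quasi-likelihood test 5 of the 6 markers that passed its filter on low counts were called higher, while DESeq2 called all 8 higher. Cldn4 was at 0 in PF replicate 3. Without Spp1, the other 7 markers summed to 4.3 to 7.87 CPM in PF and 6.81 to 94.4 CPM in AF, where AF replicate 6 alone lay within the PF range and AF replicate 1 was highest. Of the 8 stellate cell markers 6 were called higher, with a summed level of 189 to 484 CPM in PF and 408 to 1030 CPM in AF. The part of these cells in the levels of the lipid-associated genes was not tested.

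**Figure D3:**
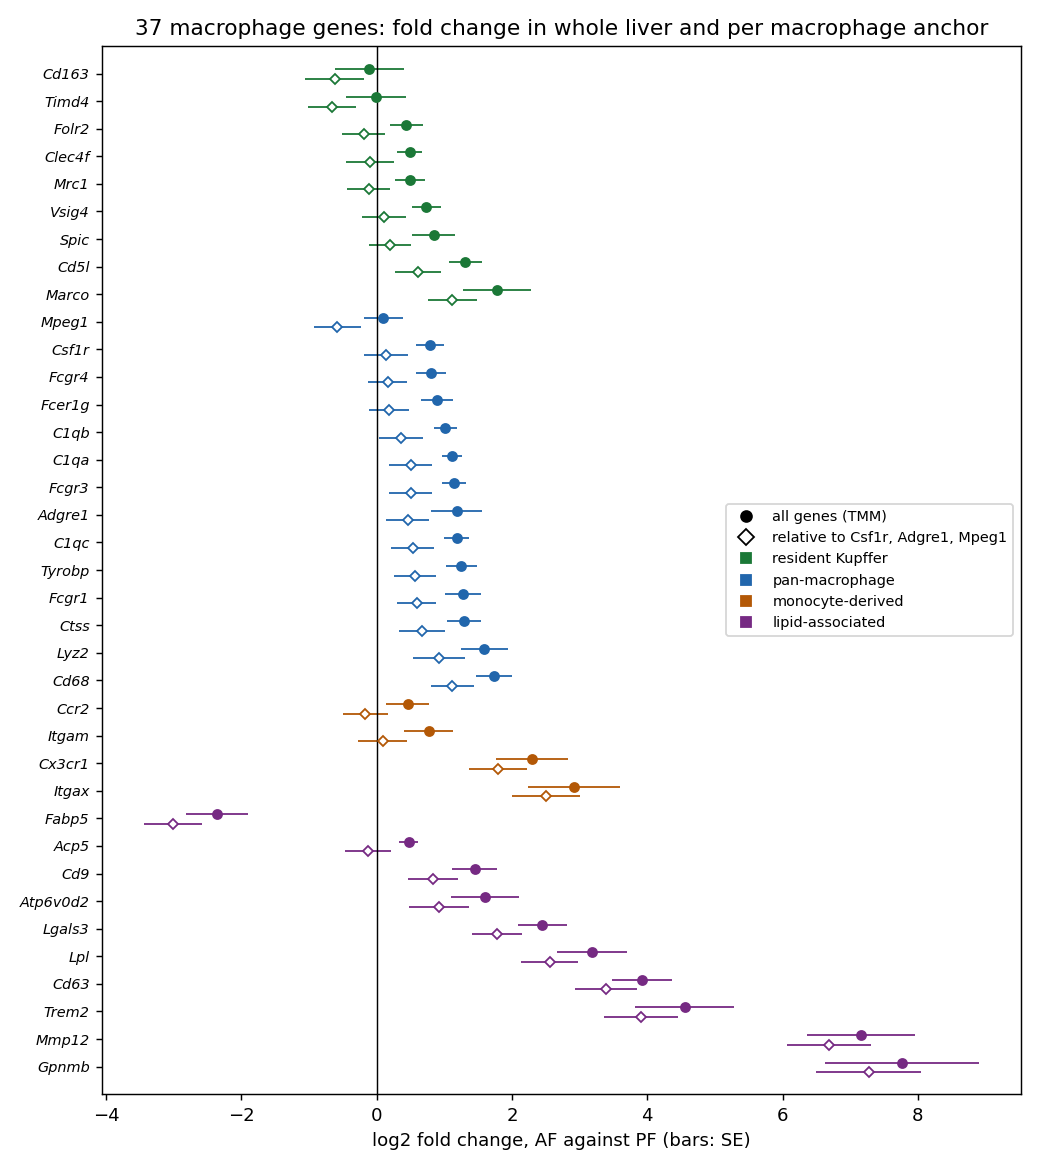
Log2 fold change of AF against PF (bars, SE) for the 37 genes, coloured by class, on the scale of all genes (filled circles, TMM) and relative to Csf1r, Adgre1 and Mpeg1 (open diamonds). On the relative scale most resident and pan-macrophage genes sit within about 1 unit of 0, while Gpnmb and Mmp12 remain at 7.27 and 6.69 and Fabp5 lies at -3.01.

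A second scale gave each gene per unit of 3 pan-macrophage genes, the anchors. The anchors did not move alike, with log2 fold changes of 0.79 for Csf1r, 1.18 for Adgre1 and 0.10 for Mpeg1 on the scale of all genes. Library factors were set so that the geometric mean count of Csf1r, Adgre1 and Mpeg1 was equal in all libraries, and the 3 anchors were left out, which leaves 34 genes. On the scale of all genes this geometric mean was 128 to 215 CPM in PF and 172 to 479 CPM in AF, and the fit relative to it has its own estimate of the spread. Relative to the anchors, 10 of the 34 genes were called higher and 1 lower, with a median log2 fold change of 0.55 against -0.52 over all genes. Over all genes 4.36% were called higher and 20.6% lower on this scale. The 10 genes were Gpnmb (7.27), Mmp12 (6.69), Trem2 (3.91), Cd63 (3.39), Lpl (2.56), Itgax (2.50), Cx3cr1 (1.79), Lgals3 (1.78), Cd68 (1.12) and Marco (1.12). Their adjusted p ran from 3.23e-10 for Mmp12 to 0.0246 for Marco, and Fabp5 was lower by a log2 fold change of -3.01 (adjusted p = 2.22e-06). Marco was not called with either of the other sets of anchors and without PF replicate 1, 2, 3 or 4, whereas the other 9 genes were called under all of these.

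None of the 9 resident genes was called lower relative to these anchors by edgeR's quasi-likelihood test, and 0 were lower at an unadjusted p below 0.05, but the count changed with the anchors. Per 100 counts of the anchors, Timd4 stood at 16.9, 20.1, 18.1, 16.7 and 18.9 counts in PF and at 2.20 to 20.2 in AF, with a median of 12, and 6 of the 7 AF livers lay below all PF livers. Its relative log2 fold change was -0.66 ± 0.36 (adjusted p = 0.155). Cd163 stood at 24.4 to 43.4 counts per 100 in PF and at 1.67 to 49.8 in AF, with a median of 20 (-0.62 ± 0.433). With C1qa, C1qb and C1qc as anchors 7 of 34 genes were called lower (Timd4, Folr2, Cd163, Mrc1, Mpeg1, Fabp5 and Acp5), and with Tyrobp, Fcer1g and Ctss 3 were (Timd4, Mpeg1 and Fabp5). Timd4 and Cd163 were also called lower with the first anchors once AF replicate 6 was left out. Cd68 held its rise on each of these scales, and per 100 anchor counts it stood at 8.73 to 11.6 in PF and at 15.1 to 41.4 in AF, without overlap.

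**Figure D4:**
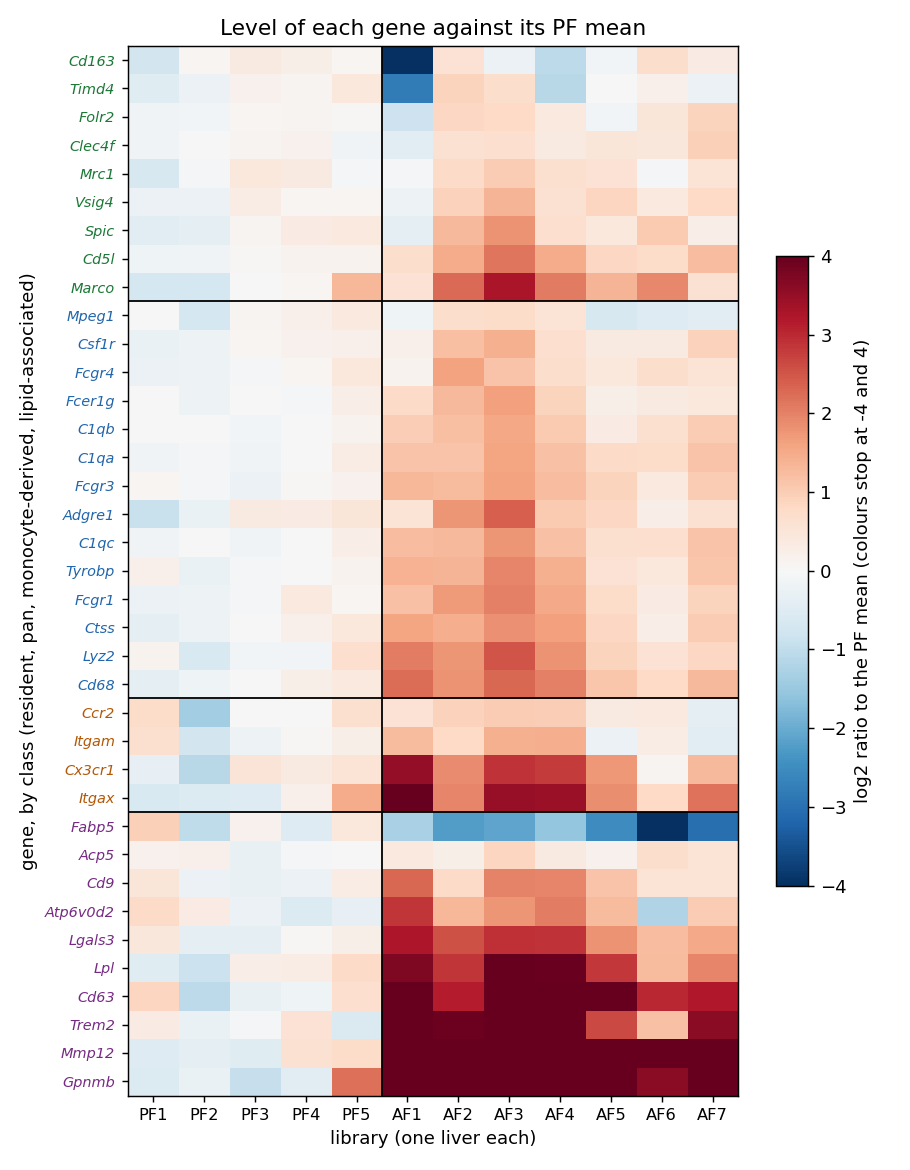
Level of each of the 37 genes (rows, by class) in each liver (columns) as log2 ratio to the PF mean, with red for higher and blue for lower and colours that stop at -4 and 4. In AF replicate 1 Cd163 and Timd4 are the bluest resident genes while Gpnmb, Mmp12, Trem2 and Itgax are at the red end of the scale.

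The 7 AF livers differed among themselves in which class was high. All 9 resident genes were lowest among AF livers in AF replicate 1, and 8 of the 10 lipid-associated genes were highest there. In this liver the mean log2 ratio to the PF mean was -0.83 for the resident and 3.96 for the lipid-associated genes, and in the other 6 AF livers it was 0.46 to 1.28 and 1.03 to 3.54. The resident mean of AF replicate 1 leans on Cd163 (-3.99) and Timd4 (-2.81), while its other resident genes ran from -0.84 for Folr2 to 0.70 for Cd5l. Summed, its resident genes stood at 875 CPM, within the PF range of 688 to 950 CPM. AF replicate 3 was highest for 13 of the 14 pan-macrophage genes and for 5 of the 9 resident genes, with class means of 1.75 and 1.28. AF replicate 6 was lowest for 8 pan-macrophage and 8 lipid-associated genes, with means of 0.43 and 1.03, while its resident mean of 0.65 was within the range of the other AF livers. In AF replicate 1 Gpnmb reached 188 counts and Mmp12 212 counts per 100 anchor counts, against 3.57 to 81.7 and 14.8 to 77.4 in the other AF livers. This order of livers was noticed in the data and is described without a test. Without AF replicate 1, 31 of the 37 genes were called higher and 1 lower.

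**Figure D5:**
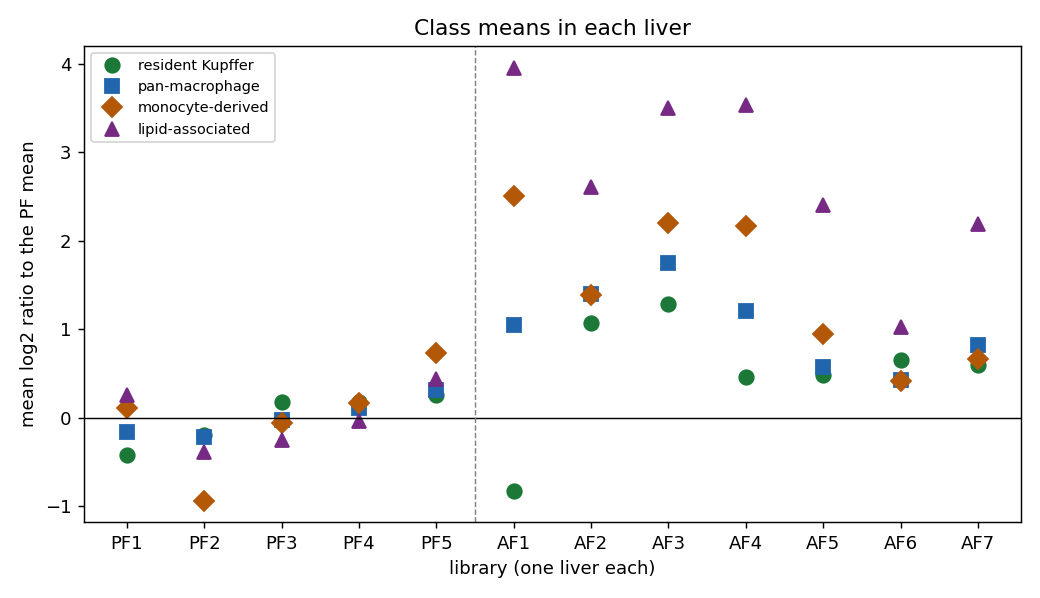
Mean log2 ratio to the PF mean over the genes of each class in each of the 12 livers, with PF left and AF right of the dashed line. The lipid-associated mean (triangles) is the highest of the 4 classes in every AF liver, and the resident mean (circles) falls below 0 in AF replicate 1 alone among AF livers.

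Further genes of the same programs were read from lists, to set the 37 genes in context. Over all genes tested, 22.0% were called higher and 17.8% lower, the shares to set beside each list. Of 10 further Kupffer cell genes 7 were called higher and 1 lower. Hmox1, which breaks down haem, had the largest rise of these at 1.59 ± 0.344 (adjusted p = 0.00334). Its level was 40.4 ± 5.1 CPM in PF (SD, n = 5) and 122 ± 85.9 CPM in AF (SD, n = 7). The AF mean and SD lean on AF replicate 6 at 315 CPM, since the other AF livers stood at 79.3 to 110 CPM. Which cells of the liver make this Hmox1 was not tested. The lower gene was the complement gene C6 at -2.31 ± 0.256 (adjusted p = 4.25e-05), which hepatocytes express as well. Of 12 further lipid-associated genes 10 were called higher, led by Capg, an actin-capping protein, at 2.92 ± 0.453 (adjusted p = 4.49e-04). Summed, these 12 genes stood at 3010 to 3280 CPM in PF and at 5040 to 7100 CPM in AF livers. Which cells of the liver these levels come from was not tested. Among 10 further pan-macrophage genes 6 were higher, led by the membrane protein gene Ms4a7 at 2.26 ± 0.584 (adjusted p = 0.00887).

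Of 10 further genes of circulating monocytes 2 were called higher (22.0% over all genes), the endotoxin co-receptor Cd14 at 2.06 ± 0.455 (adjusted p = 0.00372) and Ms4a6c at 0.80 ± 0.256 (adjusted p = 0.0249). Ly6c2, Ccl2, Spi1 and Nr1h3 are also given for their roles and were chosen after their values had been seen. Ly6c2, which marks classical monocytes, stood at 6.59 ± 7.71 CPM in PF (SD, n = 5) and 3.67 ± 1.29 CPM in AF (SD, n = 7), a log2 fold change of -0.84 ± 0.527 (adjusted p = 0.219). The PF mean rests on PF replicate 1 (20.1 CPM), without which it was 3.2 ± 1.67 CPM (SD, n = 4) and the log2 fold change turned to 0.19 (adjusted p = 0.687). The summed level of the 10 genes was 191 CPM in PF replicate 1, 46.8 to 115 CPM in the other PF and 73.8 to 236 CPM in the AF livers. Among the 8 listed ligands, 5 passed the filter on low counts, and 4 of these were called higher by edgeR's quasi-likelihood test. They were Cx3cl1, the ligand of Cx3cr1, at 1.90 ± 0.526 (adjusted p = 0.0125), the chemokine Ccl7 at 1.42 (0.0426), and the Csf1r ligands Il34 at 1.03 (0.00459) and Csf1 at 0.51 (0.031). Ccl2, the main ligand of Ccr2, stood at 5.20 ± 0.964 CPM in PF (SD, n = 5) and 7.90 ± 2.57 CPM in AF (SD, n = 7). Its log2 fold change of 0.60 ± 0.23 did not pass the test (adjusted p = 0.0516). By limma-voom all 5 ligands that passed the filter were called higher, Ccl2 included, and DESeq2 called 5 of the 8 listed.

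Of 9 transcription factors of macrophages 6 were called higher. Id3, which Kupffer cells need, rose by 1.33 ± 0.211 (adjusted p = 5.45e-04). Id3 was highest in AF replicate 1 (25.8 CPM), and which cells of the liver its rise comes from was not tested. Spi1, the gene of PU.1, rose by 1.05 ± 0.24 (adjusted p = 0.00458). Its level was 5.37 ± 1.59 CPM in PF livers (SD, n = 5) against 11.1 ± 3.25 CPM in AF livers (SD, n = 7). Nr1h3, the gene of LXR alpha, which maintains Kupffer cell identity and is also expressed in hepatocytes, stood at 57.5 ± 4.24 CPM in PF (SD, n = 5) and 52.2 ± 10.6 CPM in AF (SD, n = 7), a log2 fold change of -0.14 ± 0.136 (adjusted p = 0.431). Of 8 T cell markers 1 was called lower (Cd4) and of 6 B cell markers 2 were by edgeR's quasi-likelihood test. For the B cell markers limma-voom called 5 lower and DESeq2 2, and 4 were lower at an unadjusted p below 0.05 in edgeR. The 10 neutrophil markers were not called by edgeR's quasi-likelihood test or limma-voom, 1 was lower by DESeq2, and 5 were lower at an unadjusted p below 0.05 in edgeR. These lower values lean on PF replicate 1, where the 10 markers summed to 1160 CPM. The other PF livers stood at 61.2 to 248 CPM and the AF livers at 35.9 to 217 CPM.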

How the data were processed

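Whole liver RNA of 5 PF and 7 AF mice was sequenced with 1 library per mouse. The authors enriched polyadenylated RNA, prepared stranded libraries, examined the reads with FastQC 0.10.1 and aligned them to mm10 (GRCm38) with TopHat2 2.0.13. They deposited raw counts per gene, made with HTSeq 0.10.0 per the submitters' processing notes, and the annotation and strand setting of this step are not given in the sources used here. Of 54232 gene IDs, 54165 were named through GENCODE release M21.

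Calculations were done in R 4.3.3. The main test was edgeR 4.0.16 (quasi-likelihood, TMM, filterByExpr by group, 14168 genes, Benjamini-Hochberg adjustment over all of them, threshold 0.05) of AF against PF without covariates. The standard error was derived from the F statistic. The Cuffdiff2 test of the study needs other input and was not run. Library totals were 24129900 to 30578639 counts, where 0 reads were counted up to 3 remain possible (95% confidence, counting error only). In 31 pairs of libraries within groups, differences were at least 20.2 times the counting noise, and all 12 libraries were kept as separate replicates. Nothing beyond the labels shows that the mice were housed or processed apart, and p-values measure the spread between these libraries.

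The genes and lists were chosen with earlier results of these data known. From each further list the called genes with the largest rise and the largest fall were named, and all where a count was 5 or fewer, except for 1 gene that is not reported here. Alternatives were DESeq2 1.42.0, limma 3.58.1 (voom with sample quality weights), RLE, library totals, looser and stricter count filters (any library with 1 count; a mean of 10), a replicate block, leaving out each library, exact two-sided permutation over 792 assignments on log2(CPM + 0.1) or log2(CPM + 1), and 2 other sets of anchors. Leaving out libraries for Ly6c2 and summing bile duct markers without Spp1 were added after seeing the data. Steps were tested on simulated data with known changes. The simulation set the same spread for all genes and changed far fewer genes than were called here, equally up and down. It does not show how the steps handle the spread and scaling of these livers.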

Additional observations from a re-analysis of the deposited data

Results flagged for a closer look

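Within each group of livers, the highest and the lowest value of each of the 37 genes were compared with the nearest other value, as a share of the range of the group (Dixon's test at 5%). Of the 74 groups of values, 7 had a liver that stood apart, where about 3.7 would if all values were normally distributed. In all 7 the liver was the highest of its group. The test was applied to CPM without a log, so a skew towards high values can add such flags. PF replicate 5 stood apart for the scavenger receptor Marco (136 CPM), the integrin chain Itgax (6.20 CPM) and Gpnmb (2.22 CPM). AF replicate 3 stood apart for Marco (511 CPM), Cd5l (1220 CPM) and C1qa (124 CPM), and AF replicate 1 for Itgax (56.5 CPM). What sets these livers apart was not tested.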

How the results depend on the processing

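With library totals in place of TMM, 6458 genes were called higher and 938 lower (87.3% of calls higher against 55.3%), the median log2 fold change of all genes moved from 0.04 to 0.40, and of the 37 genes 32 were higher and 1 lower. The log2 fold changes of Timd4 and Cd163 then changed sign, to 0.29 and 0.14. Relative to C1qa, C1qb and C1qc 7 of 34 genes were called lower, and relative to Tyrobp, Fcer1g and Ctss 3 were. Leaving out single libraries gave 1 to 3 lower and 9 to 13 higher genes on the scale of Csf1r, Adgre1 and Mpeg1. On the scale of all genes it gave 26 to 31 higher genes and 1 lower gene, and the log2 fold change ran from -0.25 to 0.19 for Timd4, from -0.30 to 0.10 for Cd163 and from -0.05 to 0.20 for Mpeg1, with 0 for Timd4 without PF replicate 4 and for Cd163 without AF replicate 4. The log2 fold change of Ly6c2, a fit added after seeing the data, ran from -1.10 to 0.19. DESeq2, limma-voom, RLE and both filters called 27 to 30 genes higher and 1 lower. The call of Clec4f (0.49) was lost under RLE (adjusted p = 0.0571), both filters (0.0618 and 0.0505) and permutation (exact p = 0.0593).

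Replicate numbers are shared by the groups, but the deviations of same-numbered livers correlated at -0.08 to 0.11 over 5 pairs, so the numbers were not taken to pair the mice. With the replicate number as a block in 10 libraries, 28 of the 37 genes were higher and 1 lower, and 3342 of all genes were higher and 2914 lower. Clec4f (0.35, adjusted p = 0.109) and Acp5 (0.40, 0.0825) lost their calls under the block, and Mrc1 (0.59) and Itgam (0.97) gained one, while Timd4 (-0.42) and Cd163 (-0.88) were not called. Limma-voom gave -0.40 and -0.68 for these 2 genes. The cause of these shifts was not tested. Depth limits the rarest genes, since Gpnmb, Trem2 and Mmp12 had as few as 4, 7 and 13 reads in a PF library.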
